A study of Mus musculus with 24 samples.

Results

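Inguinal white adipose tissue (iWAT) of Ctrl and LKO mice was compared over 6 libraries, 3 per genotype, of the 24 libraries of the series. They were chosen by the tissue and genotype in their labels, and 12288 of the 24532 genes in the deposited table reached 1 FPKM (fragments scaled to transcript length and to the library's depth) in at least 3 of the 6 and were tested. Ctrl mice were C57BL/6 mice with the genotype Crif1flox/flox, and LKO mice carried Alb-Cre on top of the same 2 floxed alleles. All were fed chow and were labelled as 8 weeks old. The albumin promoter drives the recombinase in hepatocytes, so that fat is not the targeted tissue, and no group carried the recombinase without floxed alleles. Nothing in the labels says whether a library holds 1 mouse or several, or whether 1 mouse gave all 4 tissues, so that the spread between libraries may in part be technical.

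*Crif1* (listed as *Gadd45gip1*) encodes a protein of the mitochondrial ribosome that is needed for the insertion of newly made respiratory chain subunits. Its loss in hepatocytes impairs the respiratory chain of the liver, and the fat depot was read as a tissue that receives hormonal and nutrient signals from that liver. Inguinal fat of mice stores triglyceride and holds beige adipocytes, which take up fatty acids and burn them when UCP1 is induced by adrenergic signals, by FGF21 or by cold. The depot is fed by a dense capillary bed, whose endothelial cells carry lipoprotein lipase to the vessel lumen and pass fatty acids on to the adipocytes.

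The libraries were first checked against their labels. *Adipoq*, the adiponectin gene, was at 3036, 2784 and 2902 FPKM in Ctrl and 2943, 2909 and 2916 FPKM in LKO, in the order of libraries 1, 2 and 3 that is kept throughout, and *Plin1*, the coat protein of the adipocyte lipid droplet, at 1104, 787 and 876 FPKM in Ctrl and 869, 888 and 976 FPKM in LKO. Both adipocyte markers were high in all 6 libraries, and the groups overlapped for each. *Gadd45gip1* had 16.0, 11.6 and 13.2 FPKM in Ctrl and 10.4, 11.9 and 11.99 FPKM in LKO (log2 fold change -0.22 ± 0.12, SE), with overlapping groups, while in liver it was at 12.5 to 14.6 FPKM in Ctrl and 2.002 to 5.40 FPKM in LKO. The inferred depth was 4.63 to 7.95 gigabases, and Ctrl 1 and LKO 1 were the deepest libraries.

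Some libraries stood apart within their group. Ctrl 1 and LKO 1 had the most *Fasn*, the fatty acid synthase, with 2040.1, 869.7 and 824 FPKM in Ctrl and 2082, 902 and 467 FPKM in LKO, and the most *Acly*, which makes cytosolic acetyl-CoA, with 765, 252 and 171 FPKM in Ctrl and 852, 199 and 76.8 FPKM in LKO. Skeletal muscle markers were highest in Ctrl 1 and LKO 2, where the summed level of 16 genes was 1001 and 1499.6 FPKM against 114 to 211 FPKM in the other 4 libraries. Transcripts of glandular epithelium summed to 18.5 and 26.4 FPKM over 13 genes in LKO 1 and LKO 2 and to 2.59 to 3.23 FPKM in the other 4. Macrophage markers summed to 1507 to 3494 FPKM in Ctrl and 1466 to 1852 FPKM in LKO, with the highest sum in Ctrl 2. In such bulk samples, fewer cells of a type cannot be told apart from less RNA per cell.

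**Figure D1:**
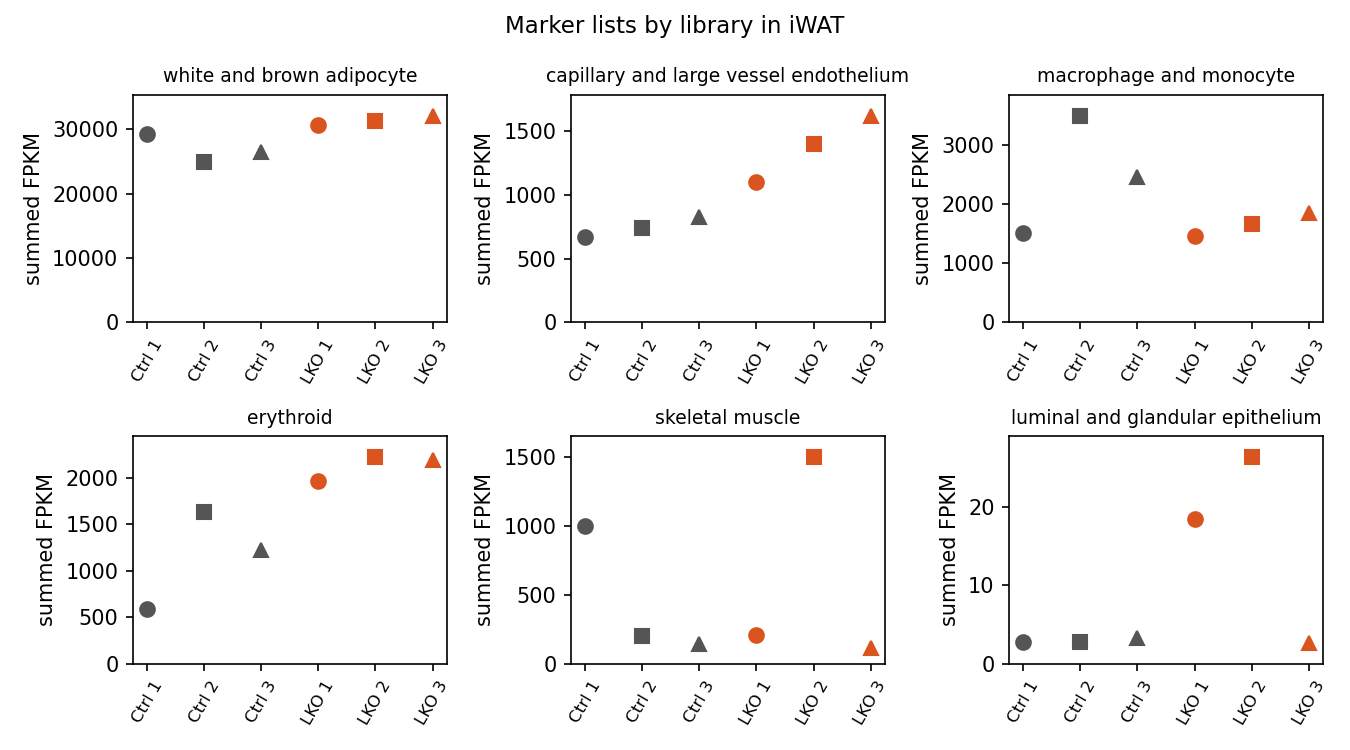
Summed FPKM of 6 marker lists in each of the 3 Ctrl (grey) and 3 LKO (orange) iWAT libraries, each on its own axis from 0. Endothelial markers sum to 668 to 827 FPKM in Ctrl and 1104 to 1621 FPKM in LKO without overlap, whereas skeletal muscle markers are high in Ctrl 1 and LKO 2.

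Across all genes tested, few differences stood out from the spread between libraries. The unadjusted criterion asked for a limma p under 0.05 and for at least a 1.5-fold change, taken on the scale of log2(FPKM + 1), which understates the change of low genes. This criterion was met by 399 of 12288 genes (3.25%), of which 240 (1.95%) were higher and 159 (1.29%) were lower in LKO. No gene met the same fold change with an adjusted p under 0.05, the smallest adjusted p being 0.0734, although 1842 genes had an unadjusted p under 0.05. The groups did not overlap for 2556 genes (20.8%), with LKO above Ctrl for 1199 (9.76%) and below it for 1357 (11%), and the median log2 fold change of all genes was -0.01. The calls named below are therefore calls of the unadjusted criterion. Counts of list members are to be set against the shares of all genes, 1.95% higher and 1.29% lower. In a short list 1 gene moves the share far, so small counts are not read as results about a list. The balance of higher and lower genes rested on single libraries, since without Ctrl 1 the criterion was met by 608 genes (226 higher, 382 lower), and without LKO 1 by 600 genes (369 higher, 231 lower), of which 106 met the adjusted criterion. The adjusted criterion was met by 14 genes after median-ratio scaling or quantile normalization, and by 317 with all 24 libraries in 1 fit. Members of the lists outside the naming rule were named after their values were seen. Since the kit does not mark strand, reads cannot be told apart where a gene overlaps another on the opposite strand, which by the coordinates in the deposited tables held for *Acad11*, *Acadvl*, *Ahsg*, *Alas2*, *Cdh5*, *Cidea*, *Ckm*, *Cnn1*, *Cxcl10*, *Egfl7*, *Elovl3*, *Eng*, *Fdft1*, *Fgfr1*, *Gadd45gip1*, *Has2*, *Il1r2*, *Kcnk3*, *Mid1ip1*, *Msx1*, *Nr1d1*, *Pik3ip1*, *Prtn3*, *Srebf1*, *Timp3*, *Tmem254a*, *Txnip* and *Zeb2* among the genes named here.

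**Figure D2:**
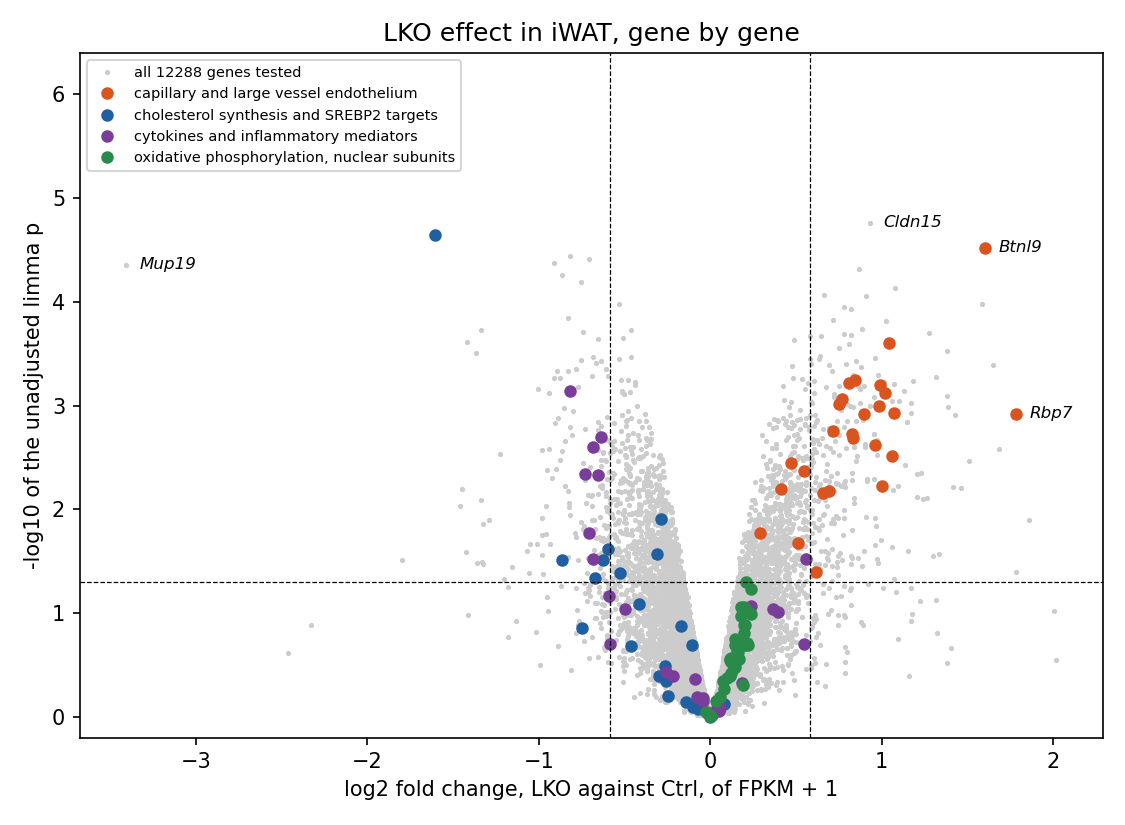
Each point is 1 of 12288 genes in iWAT, placed by its log2 fold change of FPKM + 1 in LKO against Ctrl (3 libraries each) and by -log10 of its unadjusted limma p, with dashed lines at a fold change of 1.5 and a p of 0.05. Endothelial markers (orange) lie to the right, with 21 of 28 beyond both lines, and subunits of oxidative phosphorylation (green) lie near the centre, with 0 of 40 beyond them.

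**Figure D3:**
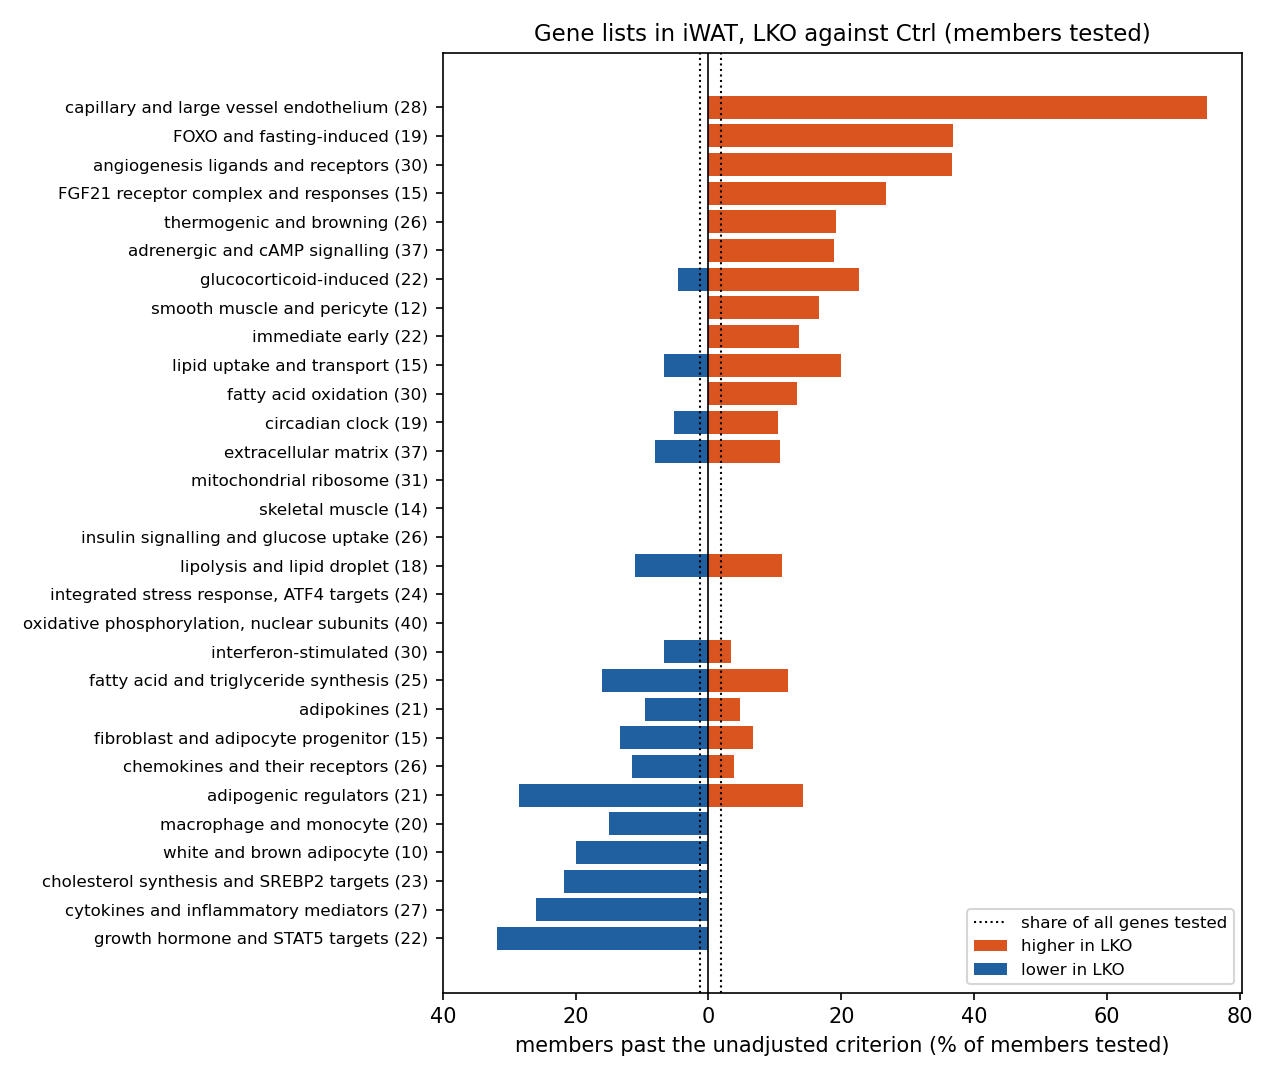
Share of the tested members of each list of at least 10 tested genes (number in brackets) that met the unadjusted criterion in iWAT, with genes higher in LKO to the right and lower to the left of 0. Dotted lines mark the shares over all genes, 1.95% and 1.29%, and the longest bar is that of the endothelial markers at 75.0%. The lists were written with earlier results of these data known.

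Of the 43 lists, that of endothelial markers had the most members higher in LKO. It was written with earlier results of these data known, so its share describes the list and is not a test. Of 28 endothelial markers, all of which passed the filter on low values, 21 (75.0%, against 1.95% of all genes) were higher in LKO and 0 were lower, and their median log2 fold change was 0.82. For 25 of the 28 every LKO library lay above every Ctrl library, against 9.76% of all genes. The 28 genes summed to 668, 738 and 827 FPKM in Ctrl and to 1104, 1396 and 1621 FPKM in LKO, so that each LKO library exceeded each Ctrl library. Without any 1 of the 6 libraries the count was 17 to 23 of 28, and it was 19 of 28 without the muscle-rich pair of Ctrl 1 and LKO 2.

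The 2 largest changes in the list were those of *Rbp7* and *Btnl9*, both of capillaries. *Rbp7* (chr4:149449702-149454968, mm10), a retinol-binding protein of adipose capillaries, was at 25.0, 36.9 and 47.1 FPKM in Ctrl and 77.9, 157 and 153 FPKM in LKO (log2 fold change 1.78 ± 0.33 (SE), limma adjusted p = 0.109). *Btnl9* (chr11:49168325-49187089), a butyrophilin-like membrane protein, had 7.25, 7.17 and 7.68 FPKM in Ctrl and 18.8, 25.9 and 29.7 FPKM in LKO (log2 fold change 1.60 ± 0.16 (SE), limma adjusted p = 0.0734), with a narrow range in Ctrl that lay far below LKO. *Cd300lg*, a receptor of capillary and venular endothelium, was at 44.2, 48.9 and 55.0 FPKM in Ctrl and 77.9, 108 and 122 FPKM in LKO (log2 fold change 1.02 ± 0.17). In all 3 of these genes LKO 1 was the lowest of the LKO libraries and still above every Ctrl library. *Gpihbp1*, which binds lipoprotein lipase and carries it across the capillary wall, had 91.5, 88.3 and 116 FPKM in Ctrl and 141, 191 and 198 FPKM in LKO (log2 fold change 0.83 ± 0.17). *Car4*, a carbonic anhydrase on the luminal membrane, had 24.6, 29.0 and 33.5 FPKM in Ctrl and 45.7, 69.1 and 61.9 FPKM in LKO (log2 fold change 0.98 ± 0.18), and *Aqp1*, a water channel, 79.3, 101 and 122 FPKM in Ctrl and 142, 216 and 261 FPKM in LKO (log2 fold change 1.00 ± 0.25). All 3 are abundant on capillaries, and the groups were separate for each.

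**Figure D4:**
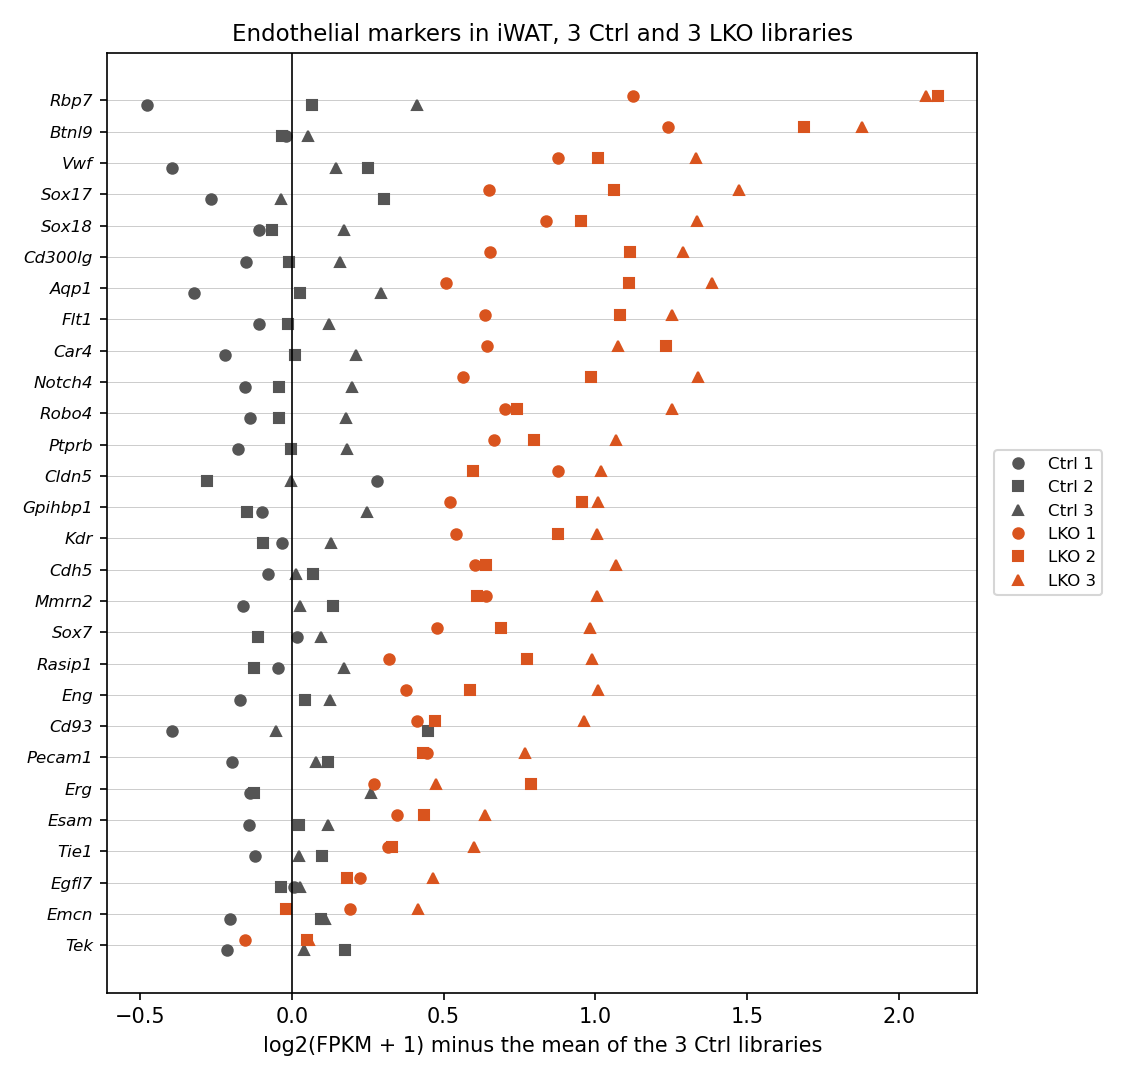
For each of 28 endothelial markers, log2(FPKM + 1) of the 3 Ctrl (grey) and 3 LKO (orange) iWAT libraries minus the mean of the 3 Ctrl libraries, with the genes ordered by fold change. LKO libraries lie right of all Ctrl libraries for 25 of the 28, *Rbp7* and *Btnl9* move furthest, and *Emcn* and *Tek* at the foot overlap.

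Transcription factors and receptors of endothelial cells followed. The SOX factors that specify arterial and lymphatic endothelium were all higher, *Sox17* with 2.78, 4.61 and 3.44 FPKM in Ctrl and 6.14, 8.49 and 11.6 FPKM in LKO (log2 fold change 1.06 ± 0.23), *Sox18* with 18.1, 18.6 and 22.1 FPKM in Ctrl and 35.7, 38.7 and 50.8 FPKM in LKO (1.04 ± 0.15) and *Sox7* with 2.65, 2.35 and 2.86 FPKM in Ctrl and 4.03, 4.83 and 6.14 FPKM in LKO (0.72 ± 0.14). The receptors for VEGF were higher too. *Flt1* (VEGFR1) had 6.4003, 6.90 and 7.67 FPKM in Ctrl and 11.4, 15.9 and 17.99 FPKM in LKO (log2 fold change 0.99 ± 0.16 (SE), limma adjusted p = 0.093), *Kdr* (VEGFR2) 17.7, 16.9 and 19.8 FPKM in Ctrl and 26.8, 34.1 and 37.3 FPKM in LKO (log2 fold change 0.81 ± 0.13 (SE), limma adjusted p = 0.093) and *Flt4* (VEGFR3) 1.09, 1.03 and 1.54 FPKM in Ctrl and 2.06, 2.14 and 2.80 FPKM in LKO (log2 fold change 0.59 ± 0.13). Their ligand *Vegfa*, in contrast, was at 97.1, 81.0 and 106 FPKM in Ctrl and 73.1, 125 and 100.3 FPKM in LKO (log2 fold change 0.05 ± 0.20) with overlapping groups. *Vwf*, the clotting factor stored in endothelial granules, had 4.24, 7.21 and 6.62 FPKM in Ctrl and 11.7, 12.9 and 16.3 FPKM in LKO (log2 fold change 1.07 ± 0.20), and *Cdh5*, the cadherin of endothelial junctions, 38.0, 42.2 and 40.5 FPKM in Ctrl and 61.6, 63.3 and 85.5 FPKM in LKO (0.77 ± 0.13). *Notch4*, the endothelial Notch receptor, had 3.74, 4.14 and 5.06 FPKM in Ctrl and 6.81, 9.47 and 12.4 FPKM in LKO (log2 fold change 0.96 ± 0.20).

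The increase was uneven within the list. *Pecam1*, a pan-endothelial adhesion molecule, had 39.5, 49.4 and 48.1 FPKM in Ctrl and 62.3, 61.7 and 78.1 FPKM in LKO (log2 fold change 0.55 ± 0.13), which did not overlap but stayed under a fold change of 1.5, as did *Esam* (0.47), *Erg* (0.51), *Tie1* (0.41) and *Egfl7* (0.29). *Tek*, the angiopoietin receptor, was at 15.0, 19.9 and 18.1 FPKM in Ctrl and 15.7, 18.2 and 18.3 FPKM in LKO (log2 fold change -0.02 ± 0.12), and *Emcn*, a sialomucin of veins and capillaries, at 15.3, 19.1 and 19.3 FPKM in Ctrl and 20.5, 17.5 and 24.1 FPKM in LKO (0.20 ± 0.14). For *Tek* and *Emcn* the groups overlapped. With 1 library left out, the call was lost by *Sox7* without LKO 3 (log2 fold change 0.58), by *Rasip1* without LKO 3 (0.55), by *Eng* without Ctrl 1 or LKO 3 (0.48 to 0.57) and by *Cd93* without Ctrl 1, Ctrl 3, LKO 2 or LKO 3 (0.42 to 0.69). It was also missed by *Flt4* without Ctrl 1, Ctrl 2 or LKO 3 (0.49 to 0.55).

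The sequence before the start sites of these markers is shown as a description. RefSeq (GRCm38.p6) gave the 250 bases upstream of the start for 16 of the 28 markers. The core that ETS factors such as ERG and ETS1 bind, AGGAAG on either strand, was found in 12 of the 16 (75.0%), and in 32.3% of 27025 genes with windows of the same length. A gene with several start sites was counted where any of its windows matched, which among the 16 applied to *Erg* and *Egfl7* with 3 windows each. By window the core was found in 13 of 20 (65.0%) and in 29.5% of all 32851 windows. 6 other motifs were searched for on both strands, namely the E-box CACGTG, the REV-ERB and ROR element TAGGTCA, the D-box TTATGTAA, the cAMP element TGACGTCA, the forkhead element TGTTTAC and the STAT element TTCNNNGAA. The cAMP element was found in 1 of the 16 promoters (6.25%, against 1.77% of all) and the other 5 in 0, against 0.977% to 8.13% of all. A match is a run of letters and not a measured binding site. The shares set endothelial genes against all genes and do not bear on the change in LKO. The ETS core also lay upstream of *Erg*, *Emcn*, *Tie1* and *Egfl7*, which did not meet the criterion, and was absent from the windows of *Kdr*, *Car4* and *Cldn5*, which did, and from that of *Tek*, which did not. The upstream sequences of 3 markers with a match and of *Kdr* follow 5′ to 3′, with matches to the ETS core in capitals, for *Rbp7* (chr4:149454969-149455218 on the minus strand), *Flt1* (chr5:147726012-147726261 on the minus strand), *Aqp1* (chr6:55336049-55336298 on the plus strand) and *Kdr* (chr5:75978456-75978705 on the minus strand).
Rbp7: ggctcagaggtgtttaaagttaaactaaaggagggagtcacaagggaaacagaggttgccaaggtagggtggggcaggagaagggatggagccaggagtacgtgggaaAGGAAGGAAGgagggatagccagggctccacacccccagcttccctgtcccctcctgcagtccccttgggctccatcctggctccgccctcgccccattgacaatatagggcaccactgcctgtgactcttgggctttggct
Flt1: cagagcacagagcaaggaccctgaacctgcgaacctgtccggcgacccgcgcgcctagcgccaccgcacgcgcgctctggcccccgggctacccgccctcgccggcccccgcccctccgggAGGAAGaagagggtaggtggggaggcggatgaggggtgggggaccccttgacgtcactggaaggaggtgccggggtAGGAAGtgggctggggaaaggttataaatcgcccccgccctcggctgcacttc
Aqp1: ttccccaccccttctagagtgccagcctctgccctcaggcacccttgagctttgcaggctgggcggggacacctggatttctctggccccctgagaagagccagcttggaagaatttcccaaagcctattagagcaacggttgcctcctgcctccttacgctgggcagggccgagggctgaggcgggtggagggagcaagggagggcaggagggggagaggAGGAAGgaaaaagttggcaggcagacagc
Kdr: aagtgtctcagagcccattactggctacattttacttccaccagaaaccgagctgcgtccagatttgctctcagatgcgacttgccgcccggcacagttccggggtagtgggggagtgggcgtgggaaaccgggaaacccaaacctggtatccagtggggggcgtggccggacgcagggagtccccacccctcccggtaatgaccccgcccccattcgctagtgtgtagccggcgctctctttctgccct

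In these windows *Rbp7* had 2 overlapping matches, the nearer one starting 138 bases before the transcript, *Flt1* had 2 at 129 and 53 bases, and *Aqp1* 1 at 29 bases. Of the ETS factors themselves only *Ets1* and *Erg* are given. *Ets1* was higher in LKO, with 8.66, 9.49 and 9.99 FPKM in Ctrl and 15.1, 15.4 and 17.8 FPKM in LKO (log2 fold change 0.72 ± 0.09), and *Erg* had 2.90, 2.93 and 4.13 FPKM in Ctrl and 4.17, 6.401 and 4.95 FPKM in LKO (0.51 ± 0.17), without overlap but under a fold change of 1.5. The part of ETS factors in the changes was not tested.

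Ligands and receptors of vessel growth form a list that shares 6 genes with the endothelial markers. Of its 30 genes, 11 (36.7%, against 1.95% of all genes) were higher and 0 lower, with a median log2 fold change of 0.39, and without LKO 3 the count was 7. Apart from the shared genes 7 of 24 were higher. Beyond the VEGF receptors they included *S1pr1*, the endothelial receptor for sphingosine 1-phosphate, with 19.5, 26.8 and 24.1 FPKM in Ctrl and 30.8, 43.3 and 50.9 FPKM in LKO (log2 fold change 0.79 ± 0.20), *Pdgfb*, which recruits pericytes, with 9.84, 10.7 and 12.01 FPKM in Ctrl and 13.1, 16.9 and 21.3 FPKM in LKO (0.59 ± 0.17), and *Jag2*, a Notch ligand, with 2.52, 2.36 and 3.02 FPKM in Ctrl and 3.72, 4.71 and 6.43 FPKM in LKO (0.69 ± 0.17). *Thbs1*, which restrains vessel growth, was also higher, at 1.69, 4.42 and 2.24 FPKM in Ctrl and 5.32, 4.83 and 13.2 FPKM in LKO (log2 fold change 1.15 ± 0.40). Calls that rested on 1 library were those lost by *Pdgfb* without Ctrl 1, Ctrl 2 or LKO 3 (log2 fold change 0.43 to 0.58), by *Jag2* without LKO 3 (0.52), by *Notch1* without Ctrl 2, LKO 2 or LKO 3 (0.50 to 0.57) and by *Thbs1* without Ctrl 1 or Ctrl 3 (0.94 to 1.07).

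Cells that accompany vessels came next. Of 12 markers of smooth muscle and pericytes 2 were higher, *Myh11*, the smooth muscle myosin, with 3.97, 5.40 and 5.04 FPKM in Ctrl and 7.58, 8.76 and 12.2 FPKM in LKO (log2 fold change 0.84 ± 0.18), and *Cnn1*, a calponin of contractile smooth muscle, with 0.451, 0.586 and 0.528 FPKM in Ctrl and 1.301, 1.72 and 1.38 FPKM in LKO (0.69 ± 0.11). *Pdgfrb*, the pericyte receptor for PDGF, was at 16.8, 20.2 and 19.0 FPKM in Ctrl and 17.97, 18.1 and 21.2 FPKM in LKO (0.03 ± 0.10) with overlapping groups. *Cnn1* passed the filter only through LKO, where it is high, and apart from it 1 of 11 was higher. The count of 2 was 1 without LKO 2 or LKO 3. Of 8 markers of Schwann cells and nerve 2 were higher and 0 lower (0 without Ctrl 1, 1 without LKO 2 or LKO 3 and 4 without LKO 1), among them *Prx*, a protein of peripheral myelin, with 7.13, 9.43 and 9.18 FPKM in Ctrl and 10.5, 14.8 and 15.4 FPKM in LKO (0.60 ± 0.17). Single libraries decided the call lost by *Prx* without Ctrl 1, LKO 2 or LKO 3 (log2 fold change 0.48 to 0.53). *Cnn1* reached 1 FPKM in only the 3 LKO libraries and could not be tested once 1 of them was left out.

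Genes of the thermogenic programme of beige fat varied widely between libraries. Of 33 genes listed, 26 passed the filter and 5 (19.2%, against 1.95% of all genes) were higher in LKO and 0 lower. Of the 5, *Elovl3* and *Cited1* reached 1 FPKM in LKO only, so that passing the filter already set them apart, and among the other 24 genes 3 were higher. The count was 6 of 33 with no filter on low values, 9 without Ctrl 1, 1 without LKO 1 and 3 without Ctrl 2, Ctrl 3 or LKO 3. Without the muscle-rich pair of Ctrl 1 and LKO 2 it was 10 of 23.

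*Ucp1* (chr8:83290348-83298456), the uncoupling protein that turns the proton gradient into heat, was at 81.6, 31.4 and 4.50 FPKM in Ctrl and 106, 41.1 and 211 FPKM in LKO (log2 fold change 2.01 ± 1.03 (SE), limma adjusted p = 0.418). It varied widely within Ctrl, LKO 2 lay below Ctrl 1, and the difference of the means was within the spread. *Cidea*, a lipid droplet protein of brown and beige adipocytes, had 152, 97.5 and 40.2 FPKM in Ctrl and 236, 115 and 139 FPKM in LKO (log2 fold change 0.88 ± 0.50), and *Cox7a1*, the respiratory subunit of heart, muscle and brown fat, 48.0, 23.0 and 6.47 FPKM in Ctrl and 34.3, 40.9 and 66.6 FPKM in LKO (1.17 ± 0.65). *Dio2*, which makes active thyroid hormone in brown fat, was low, with 1.007, 0.584 and 0.444 FPKM in Ctrl and 2.18, 0.670 and 2.66 FPKM in LKO (0.70 ± 0.30). For these 4 genes the groups overlapped and the criterion was not met. *Ppargc1a*, the coactivator of mitochondrial genes, was at 3.19, 2.75 and 2.202 FPKM in Ctrl and 1.92, 2.13 and 2.22 FPKM in LKO (log2 fold change -0.26 ± 0.12) and *Prdm16*, a determinant of brown fat identity, at 2.74, 1.76 and 2.24 FPKM in Ctrl and 3.15, 2.01 and 2.32 FPKM in LKO (0.10 ± 0.16), again with overlap.

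The 5 that met the criterion were of unlike roles. *Cox8b*, a cytochrome oxidase subunit of brown fat and striated muscle, had 272, 183 and 119 FPKM in Ctrl and 273, 295 and 409.7 FPKM in LKO (log2 fold change 0.82 ± 0.31), and *Kcnk3*, a potassium channel of brown adipocytes, 26.4, 15.6 and 17.0 FPKM in Ctrl and 34.6, 30.9 and 27.2 FPKM in LKO (0.65 ± 0.20). *Elovl3*, an elongase induced by cold, was at 0.508, 0.548 and 0 FPKM in Ctrl and 2.24, 1.04 and 3.91 FPKM in LKO (1.26 ± 0.34), and *Cited1*, a marker of beige adipocytes, at 0.397, 0.686 and 0.832 FPKM in Ctrl and 4.75, 2.85 and 1.52 FPKM in LKO (1.23 ± 0.29). *Ppara*, the nuclear receptor of fatty acid oxidation, had 5.63, 3.21 and 4.41 FPKM in Ctrl and 8.04, 7.23 and 6.08 FPKM in LKO (log2 fold change 0.60 ± 0.18 (SE), limma adjusted p = 0.209), with LKO 3 just above Ctrl 1. *Cox8b*, *Cox7a1*, *Cpt1b* and *Fabp3* are expressed in striated muscle as well, and the muscle marker *Ckm*, the muscle creatine kinase, stood at 108, 15.5 and 9.74 FPKM in Ctrl and 11.9, 178 and 6.45 FPKM in LKO. The part of muscle RNA in these values was not tested beyond leaving out Ctrl 1 and LKO 2. Among these, leaving out a library ended the call made by *Cox8b* without Ctrl 2, Ctrl 3, LKO 2 or LKO 3 (log2 fold change 0.52 to 0.88), by *Kcnk3* without Ctrl 2, Ctrl 3 or LKO 1 (0.51 to 0.57) and by *Ppara* without Ctrl 2 or LKO 1 (0.43 to 0.52). *Elovl3* and *Cited1* reached 1 FPKM in only the 3 LKO libraries and could not be tested once 1 of them was left out.

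**Figure D5:**
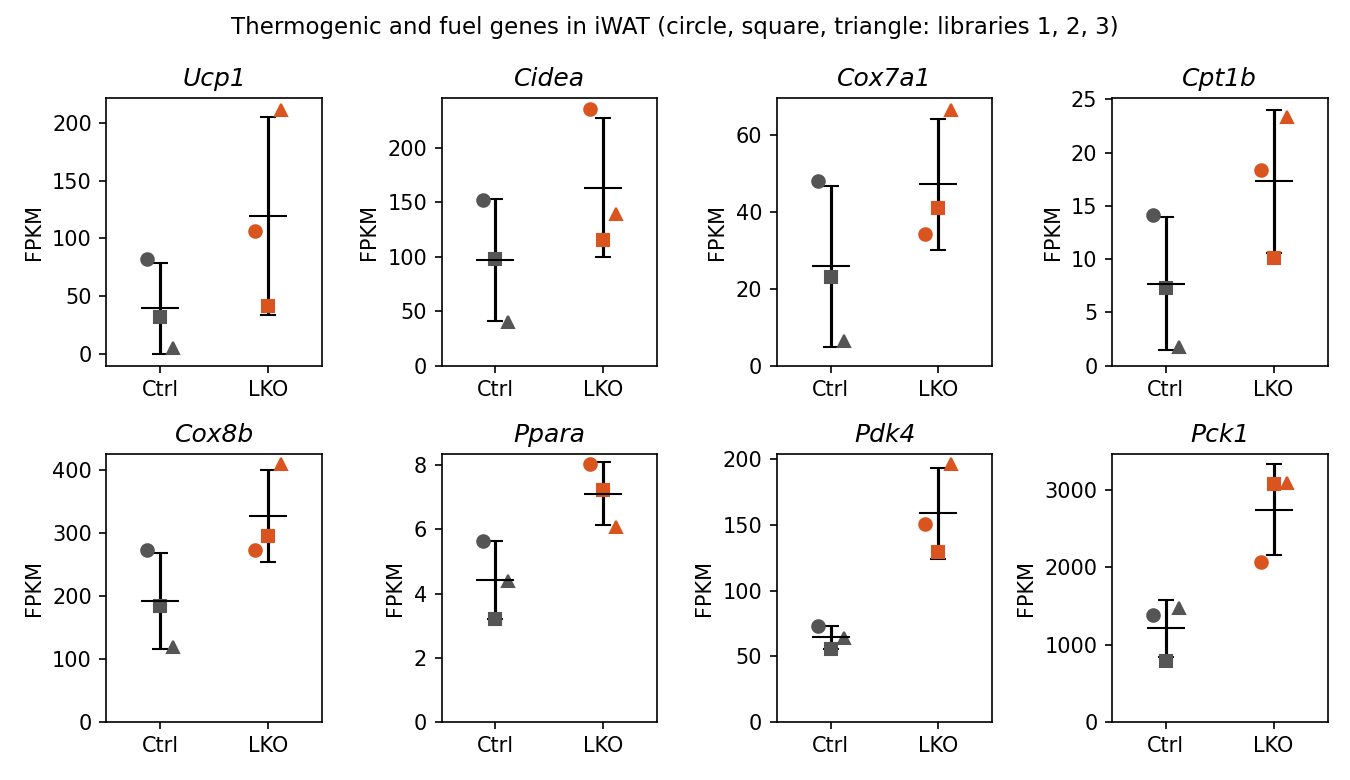
FPKM of 8 thermogenic and fuel genes in each iWAT library (circle, square and triangle for libraries 1, 2 and 3), with the mean and SD of 3 libraries per group as bars. *Pdk4* and *Pck1* are separated between Ctrl and LKO, whereas *Ucp1*, *Cidea*, *Cox7a1* and *Cpt1b* overlap, with Ctrl 3 lowest in each of these 4.

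Oxidation of fatty acids showed a few separated genes. Of 30 genes of this list, all above the filter, 4 (13.3%, against 1.95% of all genes) were higher in LKO and 0 lower. The median log2 fold change was 0.27 with 28 of 30 above 0, and the count was 8 without Ctrl 1 and 2 without Ctrl 3 or LKO 3. *Acad11*, an acyl-CoA dehydrogenase, had 44.6, 42.3 and 35.6 FPKM in Ctrl and 58.1, 59.2 and 70.8 FPKM in LKO (log2 fold change 0.61 ± 0.12), without overlap. Carnitine palmitoyltransferase passes long-chain fatty acids into mitochondria. Its muscle and brown fat form *Cpt1b* had 14.2, 7.25 and 1.73 FPKM in Ctrl and 18.4, 10.1 and 23.4 FPKM in LKO (log2 fold change 1.32 ± 0.62), and its liver form *Cpt1a* 9.03, 19.0 and 14.7 FPKM in Ctrl and 20.9, 17.6 and 21.5 FPKM in LKO (0.51 ± 0.24), with overlap for both. The dehydrogenases of medium and very long chains were close between the groups, *Acadm* at 319, 244 and 225 FPKM in Ctrl and 275, 249 and 272 FPKM in LKO (0.03 ± 0.14) and *Acadvl* at 232, 176 and 157 FPKM in Ctrl and 216, 226 and 255 FPKM in LKO (0.32 ± 0.16). On leaving out 1 library, the criterion was no longer met by *Acad11* without Ctrl 3 or LKO 3 (log2 fold change 0.51 to 0.52).

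Next come genes induced by fasting. *Pdk4* (chr6:5483351-5496278), the kinase that shuts pyruvate dehydrogenase and spares glucose, was at 73.3, 55.8 and 63.9 FPKM in Ctrl and 150.3, 129 and 197 FPKM in LKO (log2 fold change 1.28 ± 0.17 (SE), limma adjusted p = 0.0884), and its paralogue *Pdk2* at 56.9, 49.7 and 60.03 FPKM in Ctrl and 70.1, 113 and 110.2 FPKM in LKO (log2 fold change 0.78 ± 0.19). *Pck1*, which in fat makes glycerol 3-phosphate for re-esterification, had 1375, 786 and 1467 FPKM in Ctrl and 2066, 3072 and 3093 FPKM in LKO (log2 fold change 1.21 ± 0.29 (SE), limma adjusted p = 0.152). Every LKO library exceeded every Ctrl library for these 3 genes. They belong to a list of 21 transcripts induced by fasting and FOXO factors, of which 19 were tested and 7 (36.8%, against 1.95% of all genes) were higher and 0 lower. The median log2 fold change was 0.59 (0.38 without Ctrl 2), and without LKO 3 the count was 4. Others among the 7 were *Fbxo21*, with 33.5, 27.1 and 40.5 FPKM in Ctrl and 49.9, 81.6 and 71.6 FPKM in LKO (0.97 ± 0.21), *Txnip*, an inhibitor of glucose uptake, with 435, 682 and 732 FPKM in Ctrl and 729, 1049.5 and 959.7 FPKM in LKO (0.59 ± 0.24), and *Pik3ip1*, an inhibitor of PI3 kinase, with 3.00, 5.07 and 4.11 FPKM in Ctrl and 4.63, 8.64 and 7.52 FPKM in LKO (0.63 ± 0.24). With 1 library left out, the call was lost by *Txnip* without Ctrl 1, LKO 2 or LKO 3 (log2 fold change 0.35 to 0.54) and by *Pik3ip1* without Ctrl 1, Ctrl 3, LKO 2 or LKO 3 (0.47 to 0.65).

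Genes of insulin signalling and glucose uptake met the criterion in 0 of 26 cases by limma (4 had an unadjusted p under 0.05 at any fold change), which is close to the 3.25% of all genes, and their log2 fold changes ran from -0.41 to 0.74. This rested on single libraries, since 3 were higher and 1 lower without LKO 1, and 2 were higher without Ctrl 3. *Slc2a4*, the insulin-responsive glucose transporter, was at 143, 87.1 and 102 FPKM in Ctrl and 144, 105 and 91.4 FPKM in LKO (log2 fold change 0.04 ± 0.23), with overlap. *Irs1*, the insulin receptor substrate, had 9.04, 10.5 and 11.6 FPKM in Ctrl and 8.49, 7.10 and 7.65 FPKM in LKO (-0.38 ± 0.11), which was separate between the groups but under a fold change of 1.5.

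Uptake and storage of lipid moved in both directions. Of 15 genes of lipid uptake 3 were higher and 1 lower, which became 1 and 2 without LKO 3 and 2 and 2 without Ctrl 1. *Lipg*, among the 3, passed the filter only through LKO, and among the other 14 genes 2 were higher and 1 lower. *Cd36*, the fatty acid translocase, had 951, 807 and 805 FPKM in Ctrl and 1175, 1116 and 1249.5 FPKM in LKO (log2 fold change 0.47 ± 0.12 (SE), limma adjusted p = 0.162), which did not overlap but stayed under a fold change of 1.5. *Slc27a1*, a fatty acid transporter, had 158, 206 and 237 FPKM in Ctrl and 209, 401 and 436 FPKM in LKO (log2 fold change 0.75 ± 0.30), and *Lipg*, the endothelial lipase, 0.274, 0.366 and 0.836 FPKM in Ctrl and 1.87, 3.52 and 2.81 FPKM in LKO (1.32 ± 0.21), beside *Gpihbp1* above. *Lpl*, whose product works on the vessel wall, was at 2332, 1661 and 2036 FPKM in Ctrl and 1965, 2219 and 2211 FPKM in LKO (0.10 ± 0.17) with overlap. Of 18 tested genes of lipolysis and the lipid droplet, 2 were higher and 2 lower, but 0 were lower without Ctrl 1, LKO 2 or LKO 3 and 1 without Ctrl 3. *Aqp7*, the glycerol channel of adipocytes, had 58.3, 49.6 and 56.1 FPKM in Ctrl and 77.2, 95.2 and 110.0 FPKM in LKO (0.76 ± 0.14), and *Acer2*, an alkaline ceramidase, 16.3, 13.8 and 16.9 FPKM in Ctrl and 22.8, 37.6 and 35.6 FPKM in LKO (0.96 ± 0.19). *G0s2*, an inhibitor of adipose triglyceride lipase, was lower, with 573, 298 and 311 FPKM in Ctrl and 280.0, 216 and 222 FPKM in LKO (-0.66 ± 0.26), while that lipase itself, *Pnpla2*, had 1176, 1082 and 1173 FPKM in Ctrl and 1399.6, 1667 and 1673 FPKM in LKO (0.46 ± 0.13), separate but under a fold change of 1.5. Calls that rested on 1 library were those lost by *Slc27a1* without Ctrl 1, Ctrl 2, LKO 2 or LKO 3 (log2 fold change 0.55 to 0.78) and by *G0s2* without Ctrl 1, LKO 2 or LKO 3 (-0.61 to -0.35). *Lipg* reached 1 FPKM in only the 3 LKO libraries and could not be tested once 1 of them was left out.

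Sterol genes pointed down. Of 24 genes of cholesterol synthesis and SREBP2 targets, 23 were tested and 5 (21.7%, against 1.29% of all genes) were lower and 0 higher, with a median log2 fold change of -0.29 (-0.58 without LKO 1 and -0.16 without LKO 2). *Insig1*, which retains SREBP in the endoplasmic reticulum, had 103, 100.1 and 148 FPKM in Ctrl and 90.5, 59.8 and 80.5 FPKM in LKO (log2 fold change -0.60 ± 0.20), and *Sc5d*, a late enzyme of the pathway, 67.0, 39.6 and 39.2 FPKM in Ctrl and 39.7, 21.4 and 19.2 FPKM in LKO (-0.86 ± 0.32). *Fdft1*, the squalene synthase, had 23.9, 14.9 and 16.4 FPKM in Ctrl and 16.3, 10.01 and 7.88 FPKM in LKO (-0.67 ± 0.28), and *Msmo1*, a sterol demethylating oxidase, 14.1, 13.8 and 15.4 FPKM in Ctrl and 13.8, 7.197 and 7.24 FPKM in LKO (-0.63 ± 0.23). For *Sc5d* and *Fdft1* the groups overlapped. The count depended on single libraries, being 11 without LKO 1, 3 without Ctrl 3, 2 without Ctrl 1 or LKO 3 and 1 without LKO 2. Single libraries decided the call lost by *Insig1* without Ctrl 3 or LKO 2 (log2 fold change -0.43 to -0.42), by *Sc5d* without Ctrl 1, LKO 2 or LKO 3 (-0.75 to -0.61), by *Fdft1* without Ctrl 1, Ctrl 3, LKO 2 or LKO 3 (-0.74 to -0.46) and by *Msmo1* without Ctrl 1, Ctrl 2, Ctrl 3, LKO 2 or LKO 3 (-0.66 to -0.49).

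Fatty acid and triglyceride synthesis was mixed, with 3 of 25 genes higher and 4 lower and a median log2 fold change of -0.13 (0.11 without Ctrl 1, -0.26 without Ctrl 2, -0.37 without LKO 1 and 0.16 without LKO 3). Without Ctrl 1 and LKO 2 it was 0.22, and without Ctrl 2 only 1 gene was higher. *Srebf1*, the master regulator of lipogenesis, was lower, with 193, 196 and 184 FPKM in Ctrl and 134, 112 and 118 FPKM in LKO (log2 fold change -0.65 ± 0.09), and so were *Mid1ip1*, an activator of acetyl-CoA carboxylase, with 49.2, 38.2 and 37.8 FPKM in Ctrl and 27.1, 13.6 and 13.5 FPKM in LKO (-1.23 ± 0.27), and *Acsl3*, an acyl-CoA synthetase, with 5.73, 5.31 and 5.13 FPKM in Ctrl and 3.18, 2.87 and 2.43 FPKM in LKO (-0.74 ± 0.10). *Pnpla3*, a lipogenic target in fat, had 334, 215 and 323 FPKM in Ctrl and 229, 123.4 and 106 FPKM in LKO (-0.98 ± 0.31), and the microRNA gene *Mir6392* (chr15:84168270-84168377), which lies within *Pnpla3* on the same strand, 46.8, 26.3 and 41.6 FPKM in Ctrl and 25.0, 8.92 and 9.36 FPKM in LKO (-1.46 ± 0.40), so that their reads cannot be told apart. *Acacb*, the carboxylase that restrains fatty acid oxidation, was higher, with 49.5, 38.1 and 35.4 FPKM in Ctrl and 74.7, 64.5 and 52.5 FPKM in LKO (0.63 ± 0.17), as was *Scd3*, a desaturase, with 17.8, 10.2 and 9.67 FPKM in Ctrl and 26.2, 21.3 and 15.3 FPKM in LKO (0.71 ± 0.27). Both *Fasn* and *Acly*, given above, overlapped between the groups, and did so also with Ctrl 1 and LKO 1 set aside. Among these, leaving out a library ended the call made by *Pnpla3* without Ctrl 1, Ctrl 3, LKO 2 or LKO 3 (log2 fold change -0.89 to -0.76), by *Acacb* without Ctrl 2, Ctrl 3 or LKO 1 (0.51 to 0.58) and by *Scd3* without Ctrl 2, Ctrl 3, LKO 1 or LKO 2 (0.54 to 0.68).

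Of 21 adipokines tested, 1 (4.76%, against 1.95% of all genes) was higher and 2 (9.52%, against 1.29%) were lower. There were 4 lower without Ctrl 1 and 2 higher without Ctrl 2, Ctrl 3 or LKO 1. *Lep*, leptin, which reports fat stores to the brain, had 198, 198 and 159 FPKM in Ctrl and 145, 55.4 and 51.7 FPKM in LKO (log2 fold change -1.29 ± 0.38 (SE), limma adjusted p = 0.204), low in LKO 2 and LKO 3 and near Ctrl in LKO 1. *Hp*, haptoglobin, had 2428, 2821 and 3234 FPKM in Ctrl and 1166, 1772 and 1523 FPKM in LKO (log2 fold change -0.94 ± 0.20 (SE), limma adjusted p = 0.127), with clear separation. *Lcn2*, lipocalin 2, was higher, with 1.3, 1.39 and 1.34 FPKM in Ctrl and 5.17, 7.53 and 2.21 FPKM in LKO (log2 fold change 1.24 ± 0.33). It is also made by epithelium and neutrophils, and its order over the LKO libraries, highest in LKO 2 and lowest in LKO 3, was that of the epithelial marker *Krt19*, with 1.25, 1.77 and 1.47 FPKM in Ctrl and 5.08, 7.62 and 1.40 FPKM in LKO. The part of epithelial RNA in *Lcn2* was not tested.

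Regulators of adipocyte formation moved in both directions, 3 of 21 tested (14.3%, against 1.95% of all genes) higher and 6 (28.6%, against 1.29%) lower. *Pparg*, the master regulator of adipocytes, had 133, 164 and 139 FPKM in Ctrl and 78.4, 101 and 103 FPKM in LKO (log2 fold change -0.63 ± 0.14). Beside *Srebf1*, given above, 4 of the lower genes follow. *Dkk2*, a secreted WNT modulator, had 5.21, 6.26 and 5.25 FPKM in Ctrl and 2.68, 2.39 and 2.39 FPKM in LKO (log2 fold change -0.91 ± 0.10 (SE), limma adjusted p = 0.0734), *Wnt10b*, a ligand, 4.30, 4.96 and 4.78 FPKM in Ctrl and 2.40, 2.29 and 2.93 FPKM in LKO (-0.69 ± 0.10), and *Axin2*, a common WNT target, 5.18, 2.88 and 4.01 FPKM in Ctrl and 2.18, 2.26 and 1.98 FPKM in LKO (-0.65 ± 0.17). *Msx1*, a homeobox factor of mesenchymal progenitors, had 4.77, 5.69 and 5.08 FPKM in Ctrl and 2.52, 2.498 and 2.16 FPKM in LKO (log2 fold change -0.86 ± 0.10 (SE), limma adjusted p = 0.0757). All 5 were separate between the groups. Higher were *Id1*, a target of BMP signalling that is also high in endothelium, with 31.0, 27.8 and 40.1 FPKM in Ctrl and 41.5, 68.7 and 94.9 FPKM in LKO (0.97 ± 0.30), and the adipogenic X-linked retrogenes *Arxes1*, with 49.1, 51.1 and 59.4 FPKM in Ctrl and 71.7, 92.8 and 97.3 FPKM in LKO (0.70 ± 0.14), and *Arxes2*, with 93.6, 106 and 121 FPKM in Ctrl and 134, 197 and 207 FPKM in LKO (0.72 ± 0.19), which are near-identical copies whose reads may be split. On leaving out 1 library, the criterion was no longer met by *Pparg* without Ctrl 2 or LKO 1 (log2 fold change -0.54 to -0.50) and by *Axin2* without Ctrl 1 (-0.49).

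Of 15 markers of fibroblasts and adipocyte progenitors 1 (6.67%, against 1.95% of all genes) was higher and 2 (13.3%, against 1.29%) were lower. There were 7 lower without Ctrl 1, 1 lower without Ctrl 2, Ctrl 3, LKO 2 or LKO 3, and 0 higher without Ctrl 2. Lower was *Pi16*, which marks interstitial progenitors, with 306, 346 and 311 FPKM in Ctrl and 209, 198 and 166 FPKM in LKO (log2 fold change -0.75 ± 0.11). *Pdgfra*, which marks the lineage at large, was at 16.8, 28.1 and 23.6 FPKM in Ctrl and 17.7, 22.5 and 22.3 FPKM in LKO (-0.11 ± 0.19) with overlap. Of 37 genes of the extracellular matrix, 4 (10.8%, against 1.95% of all genes) were higher and 3 (8.11%, against 1.29%) lower. The lower ones were 8 without Ctrl 1 and 1 without Ctrl 2 or Ctrl 3, and the median log2 fold change of -0.12 was -0.23 without Ctrl 1, 0.06 without Ctrl 2, -0.06 without LKO 2 and -0.19 without LKO 3. *Has2* reached 1 FPKM in Ctrl only, and among the other 36 genes 4 were higher and 2 lower. *Adamts5*, an aggrecanase, had 36.0, 30.9 and 23.9 FPKM in Ctrl and 17.0, 13.7 and 12.7 FPKM in LKO (log2 fold change -1.01 ± 0.17 (SE), limma adjusted p = 0.0944) and *Has2*, a hyaluronan synthase, 1.49, 1.88 and 2.32 FPKM in Ctrl and 0.778, 0.682 and 0.604 FPKM in LKO (log2 fold change -0.77 ± 0.13 (SE), limma adjusted p = 0.0939). *Lama5*, a laminin of vessel basement membranes, was higher, with 2.42, 2.93 and 2.87 FPKM in Ctrl and 4.61, 5.44 and 7.18 FPKM in LKO (log2 fold change 0.84 ± 0.15), and so was *Timp3*, a protease inhibitor of the matrix, with 53.5, 65.2 and 71.1 FPKM in Ctrl and 76.2, 118 and 129 FPKM in LKO (0.73 ± 0.21). *Has2* reached 1 FPKM in only the 3 Ctrl libraries and could not be tested once 1 of them was left out.

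Immune cell markers moved in both directions, and Ctrl 2 was the library richest in macrophage genes. Of 20 macrophage and monocyte markers 0 were higher and 3 (15.0%, against 1.29% of all genes) lower, with a median log2 fold change of -0.52 (-0.85 without Ctrl 1 and -0.21 without Ctrl 2). The lower ones were 14 without Ctrl 1 and 1 without Ctrl 2, Ctrl 3 or LKO 2, and 1 was higher without Ctrl 3 or LKO 1. *Cd209d*, a lectin of resident macrophages, had 36.2, 43.8 and 60.01 FPKM in Ctrl and 23.2, 31.3 and 21.3 FPKM in LKO (log2 fold change -0.85 ± 0.21), and *Folr2*, another marker of resident cells, 114, 233 and 176 FPKM in Ctrl and 92.9, 106 and 112 FPKM in LKO (-0.69 ± 0.25). *Cd68*, a lysosomal protein of all macrophages, was at 38.7, 139 and 62.1 FPKM in Ctrl and 36.6, 39.9 and 61.4 FPKM in LKO (-0.62 ± 0.45), and the groups overlapped. *Ccl8*, a chemokine made by resident macrophages, was lower, with 72.6, 183 and 153 FPKM in Ctrl and 65.4, 46.8 and 39.8 FPKM in LKO (log2 fold change -1.34 ± 0.36 (SE), limma adjusted p = 0.174). Of 7 tested markers of dendritic cells 3 were lower and 0 higher (1 lower without Ctrl 2, Ctrl 3, LKO 1 or LKO 2). Of 13 markers of T and NK cells 6 were tested and 1, the interleukin 2 receptor chain *Il2rb*, was higher (0 without Ctrl 1, LKO 2 or LKO 3, 2 without Ctrl 2) and 0 were lower, with a median log2 fold change of 0.23 (0.06 without Ctrl 1 and 0.49 without Ctrl 2). With 1 library left out, the call was lost by *Folr2* without Ctrl 2, Ctrl 3, LKO 1 or LKO 2 (log2 fold change -0.71 to -0.45).

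Cytokine genes were lower in 7 of 27 cases (25.9%, against 1.29% of all genes) and higher in 0, with a median log2 fold change of -0.08 (-0.24 without Ctrl 1, -0.01 without Ctrl 2, -0.05 without LKO 2 and -0.14 without LKO 3), and 1 was higher without Ctrl 2, Ctrl 3, LKO 1 or LKO 2. *Bcl3*, a nuclear regulator of NF-kB, had 6.90, 7.10 and 6.09 FPKM in Ctrl and 4.17, 2.66 and 3.40 FPKM in LKO (log2 fold change -0.82 ± 0.14), *Csf1*, the growth factor of macrophages, 25.8, 28.2 and 33.0 FPKM in Ctrl and 21.2, 16.2 and 17.5 FPKM in LKO (-0.64 ± 0.13), and *Lif*, a cytokine of the interleukin 6 family, 1.99, 2.95 and 3.15 FPKM in Ctrl and 1.27, 1.45 and 1.13 FPKM in LKO (-0.68 ± 0.14). Interleukin 18 and its receptor were both lower, *Il18* with 9.26, 14.7 and 12.5 FPKM in Ctrl and 7.63, 6.68 and 7.34 FPKM in LKO (-0.66 ± 0.16) and *Il18r1* with 2.47, 3.07 and 4.08 FPKM in Ctrl and 1.91, 1.16 and 1.501 FPKM in LKO (-0.73 ± 0.17). *Il1r2*, the decoy receptor for interleukin 1, had 48.7, 73.8 and 91.2 FPKM in Ctrl and 37.2, 46.8 and 42.0 FPKM in LKO (-0.71 ± 0.22), and *Cd40*, a receptor on antigen-presenting cells, 2.82, 5.73 and 2.97 FPKM in Ctrl and 2.61, 1.56 and 1.66 FPKM in LKO (-0.69 ± 0.25). The groups were separate for all 7, and *Tnf* and *Il6* stayed under 1 FPKM in every library. Of 26 chemokine genes tested 1 (3.85%, against 1.95% of all genes) was higher and 3 (11.5%, against 1.29%) were lower. There were 5 lower without Ctrl 1 or LKO 1, 2 lower without Ctrl 3 and 0 higher without Ctrl 1 or LKO 3. Of 30 genes induced by interferon 1 (3.33%, against 1.95% of all genes) was higher and 2 (6.67%, against 1.29%) were lower, while 29 of the 30 had a negative log2 fold change (median -0.41, -0.18 without Ctrl 2). The lower ones were 7 without Ctrl 3, 6 without Ctrl 1, 5 without LKO 1 and 0 without Ctrl 2 or LKO 2, and 0 were higher without Ctrl 1, Ctrl 2, LKO 1 or LKO 3. The higher one in both was *Cxcl9*, with 10.3, 10.6 and 12.5 FPKM in Ctrl and 18.6, 13.7 and 19.9 FPKM in LKO (0.59 ± 0.15), whereas *Cxcl10*, which is induced by the same cytokine, was lower, with 7.04, 5.96 and 3.08 FPKM in Ctrl and 3.11, 1.26 and 2.51 FPKM in LKO (-0.94 ± 0.31) and overlapping groups. Calls that rested on 1 library were those lost by *Csf1* without Ctrl 3 or LKO 2 (log2 fold change -0.56 to -0.54), by *Il18* without Ctrl 2 (-0.52), by *Il1r2* without Ctrl 3 or LKO 1 (-0.63 to -0.51) and by *Cd40* without Ctrl 2, LKO 2 or LKO 3 (-0.62 to -0.42). It was also missed by *Cxcl9* without Ctrl 1, Ctrl 2, LKO 1 or LKO 3 (0.49 to 0.56) and by *Cxcl10* without Ctrl 1, Ctrl 2 or LKO 2 (-0.84 to -0.69).

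Hormone-responsive genes were examined because liver can act on fat through the blood. Of 15 tested genes of the FGF21 receptor complex and its responses 4 (26.7%, against 1.95% of all genes) were higher and 0 lower, and the count was 1 without LKO 3 and 2 without Ctrl 1 or LKO 2. *Fgfr3* passed the filter only through LKO, and among the other 14 genes 3 were higher. The receptor parts themselves did not meet the criterion, with *Klb*, the co-receptor beta-klotho, at 30.6, 22.4 and 20.6 FPKM in Ctrl and 22.0, 17.4 and 22.8 FPKM in LKO (log2 fold change -0.22 ± 0.17) and *Fgfr1* at 72.7, 89.7 and 105 FPKM in Ctrl and 69.8, 105 and 104 FPKM in LKO (0.05 ± 0.20), both with overlap. *Egr1*, an immediate early factor of the ERK pathway, had 3.24, 4.05 and 6.29 FPKM in Ctrl and 6.44, 6.76 and 10.3 FPKM in LKO (0.69 ± 0.24), and *Dusp6*, a phosphatase induced by ERK, 6.22, 10.6 and 9.63 FPKM in Ctrl and 11.8, 15.5 and 17.98 FPKM in LKO (0.72 ± 0.22). *Dusp4*, a related phosphatase, had 6.02, 5.48 and 3.05 FPKM in Ctrl and 5.89, 11.3 and 11.1 FPKM in LKO (0.82 ± 0.29), and *Fgfr3*, another FGF receptor, 0.639, 0.693 and 0.909 FPKM in Ctrl and 1.16, 2.15 and 2.96 FPKM in LKO (0.78 ± 0.22). Of these 4 only *Dusp4* overlapped between the groups. Of 37 tested genes of adrenergic and cAMP signalling 7 (18.9%) were higher and 0 lower (6 of 36 apart from *Pde4c*, which reached 1 FPKM in LKO only, and with 1 lower without LKO 1), while *Adrb3*, the adrenergic receptor of adipocytes, was at 211, 205 and 289 FPKM in Ctrl and 229, 264 and 289.6 FPKM in LKO (0.16 ± 0.16). *Pde4d*, a cAMP phosphodiesterase, had 4.87, 3.27 and 3.13 FPKM in Ctrl and 7.24, 7.65 and 8.35 FPKM in LKO (log2 fold change 0.90 ± 0.15 (SE), limma adjusted p = 0.093). *Adora2a* (0.86), *Rapgef3* (0.96), *Pde2a* (0.85) and *Adcy4* (0.70) are expressed in endothelium as well, and *Hcar2* (0.91), the niacin receptor of adipocytes, was higher too. Single libraries decided the call lost by *Egr1* without Ctrl 1, Ctrl 2 or LKO 3 (log2 fold change 0.50 to 0.64), by *Dusp6* without Ctrl 1 (0.51), by *Dusp4* without Ctrl 3, LKO 2 or LKO 3 (0.58 to 0.69) and by *Adcy4* without LKO 3 (0.56). *Fgfr3* and *Pde4c* reached 1 FPKM in only the 3 LKO libraries and could not be tested once 1 of them was left out.

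Of 22 genes induced by glucocorticoids 5 (22.7%, against 1.95% of all genes) were higher and 1 (4.55%, against 1.29%) lower. The higher ones were 3 without Ctrl 2 and 8 without LKO 1, and the lower ones 0 without Ctrl 3 or LKO 1 and 2 without Ctrl 1 or LKO 2. *Zbtb16*, a zinc-finger factor and strong glucocorticoid target, had 16.5, 7.22 and 37.0 FPKM in Ctrl and 41.0, 77.0 and 79.0 FPKM in LKO (log2 fold change 1.86 ± 0.55 (SE), limma adjusted p = 0.204), the largest increase among genes past the criterion without overlap, with LKO 1 just above Ctrl 3. *Fkbp5*, a common marker of glucocorticoid action, was at 10.2, 22.6 and 53.1 FPKM in Ctrl and 33.6, 74.9 and 68.5 FPKM in LKO (log2 fold change 1.23 ± 0.58) with overlap. *Hsd11b1*, which regenerates active glucocorticoid in fat, had 173, 132 and 89.2 FPKM in Ctrl and 229, 350.5 and 161 FPKM in LKO (0.88 ± 0.34), with LKO 3 below Ctrl 1. Among 19 tested clock genes, *Nr1d1* and *Nr1d2*, the REV-ERB repressors, were higher (10.5%, against 1.95% of all genes) and *Nfil3* lower (5.26%, against 1.29%). There were 5 higher and 2 lower without LKO 1, 1 higher and 1 lower without LKO 3, 2 lower without Ctrl 3 and 0 lower without LKO 2. *Nr1d1* had 37.9, 16.0 and 37.1 FPKM in Ctrl and 56.5, 84.3 and 96.2 FPKM in LKO (log2 fold change 1.41 ± 0.36 (SE), limma adjusted p = 0.161), and it overlaps *Thra* on the other strand, which this unstranded kit does not separate. *Nr1d2* had 5.18, 4.79 and 5.95 FPKM in Ctrl and 6.33, 14.0 and 11.6 FPKM in LKO (0.83 ± 0.26) and *Nfil3* 19.8, 17.4 and 13.9 FPKM in Ctrl and 10.7, 8.54 and 13.5 FPKM in LKO (-0.60 ± 0.18), while *Arntl*, which REV-ERB represses, was at 13.0, 11.2 and 9.54 FPKM in Ctrl and 9.83, 5.72 and 7.04 FPKM in LKO (-0.54 ± 0.19). Among these, leaving out a library ended the call made by *Hsd11b1* without Ctrl 2, Ctrl 3, LKO 1 or LKO 2 (log2 fold change 0.60 to 0.91), by *Nr1d2* without LKO 3 (0.74) and by *Nfil3* without Ctrl 1, Ctrl 2 or LKO 2 (-0.58 to -0.45). Of 22 tested immediate early genes 3 were higher (1 without Ctrl 1, 5 without LKO 1, 1 and 1 lower without LKO 3), among them *Maff*, with 2.09, 1.80 and 2.37 FPKM in Ctrl and 4.16, 4.52 and 4.21 FPKM in LKO (0.78 ± 0.10). The hour of collection is not in the labels.

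Growth hormone acts on fat through STAT5. *Mup19* (chr4:61778328-61782224), a major urinary protein that carries lipophilic ligands, was at 11.2, 8.38 and 25.4 FPKM in Ctrl and 0.272, 0.282 and 0.543 FPKM in LKO (log2 fold change -3.41 ± 0.36 (SE), limma adjusted p = 0.0734), and it passed the filter only through Ctrl, where it is high. Of 22 tested targets of this pathway 7 (31.8%, against 1.29% of all genes) were lower and 0 higher, or 6 of 21 apart from *Mup19*, and 1 was higher without Ctrl 1 or LKO 1. Of the 7, 6 were *Mup* genes and the other *Srd5a1*, a steroid reductase, with 2.38, 3.31 and 3.95 FPKM in Ctrl and 1.504, 1.11 and 1.49 FPKM in LKO (log2 fold change -0.82 ± 0.16). *Mup10*, the most abundant of the 6, had 159.5, 132 and 429 FPKM in Ctrl and 103, 108 and 46.9 FPKM in LKO (log2 fold change -1.36 ± 0.51 (SE), limma adjusted p = 0.281), with Ctrl 3 far above the other Ctrl libraries, and *Mup13*, outside the list, 68.0, 54.8 and 182 FPKM in Ctrl and 39.5, 43.3 and 19.3 FPKM in LKO (-1.42 ± 0.50). Of 14 *Mup* genes tested 9 were lower and 0 higher. They are near-identical copies on chromosome 4 whose reads may be shared, so that they do not count as independent genes. Liver makes these transcripts in quantity, and in the other tissues, too, LKO had lower means. Mean *Mup19* was 1228 FPKM in Ctrl and 65.4 FPKM in LKO liver, 1.88 FPKM in Ctrl and 0 FPKM in LKO GM and 0.272 FPKM in Ctrl and 0 FPKM in LKO hypothalamus, and mean *Mup13* 3615 FPKM in Ctrl and 313 FPKM in LKO liver, 8.20 FPKM in Ctrl and 0.485 FPKM in LKO GM and 0.930 FPKM in Ctrl and 0 FPKM in LKO hypothalamus. The part of transcripts of liver in the values of fat was not tested. *Socs2*, a growth hormone target outside that family, was at 2.40, 6.45 and 4.91 FPKM in Ctrl and 4.19, 3.94 and 4.72 FPKM in LKO (-0.01 ± 0.27) and *Igf1* at 34.7, 47.6 and 44.9 FPKM in Ctrl and 38.1, 27.0 and 28.3 FPKM in LKO (-0.44 ± 0.17), each with overlap. Without Ctrl 3 or LKO 3 the count was 2. On leaving out 1 library, the criterion was no longer met by *Mup10* without Ctrl 3 or LKO 3 (log2 fold change -0.98 to -0.84), by *Mup13* without LKO 3 (-1.07), by *Mup9* without Ctrl 3 or LKO 3 (-0.96 to -0.83) and by *Mup1* without LKO 1 or LKO 3 (-0.99 to -0.91). It was also missed by *Mup2* without Ctrl 1, Ctrl 3, LKO 1 or LKO 3 (-1.39 to -0.70) and by *Mup7* without Ctrl 3, LKO 1 or LKO 3 (-0.91 to -0.54). *Mup19* reached 1 FPKM in only the 3 Ctrl libraries and could not be tested once 1 of them was left out.

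Of 20 hepatocyte markers, a class to which *Mup* genes also belong, 6 were tested and 2 were higher and 0 lower. Their log2 fold changes ran from -0.44 to 1.39, with 4 of the 6 positive and a median of 0.12. The count was 1 without Ctrl 1, Ctrl 2 or LKO 2 and 5 of 20 with no filter, and the median was 0.19 without Ctrl 1, -0.02 without Ctrl 2, 0.32 without Ctrl 3, 0.05 without LKO 2 and 0.21 without LKO 3. *Alb*, albumin, had 23.8, 13.1 and 12.8 FPKM in Ctrl and 35.2, 46.9 and 49.2 FPKM in LKO (log2 fold change 1.39 ± 0.25), and *Apoc3*, an apolipoprotein, 3.75, 2.99 and 4.48 FPKM in Ctrl and 5.67, 10.1 and 4.85 FPKM in LKO (0.69 ± 0.25). *Ttr* and *Ahsg*, secreted liver proteins, were nearly limited to LKO 2 and LKO 3, *Ttr* with 0, 0 and 0.0358 FPKM in Ctrl and 0, 1.57 and 0.704 FPKM in LKO and *Ahsg* with 0.111, 0 and 0.144 FPKM in Ctrl and 0.0703, 1.88 and 2.17 FPKM in LKO. The 20 hepatocyte markers summed to 1650.4 to 1882 FPKM in Ctrl and 1624 to 1875 FPKM in LKO, most of it *Trf*, which fat makes too, and 3 to 8 of the 20 were at 0 in each Ctrl library against 5, 0 and 0 in the LKO libraries. Their part in other values was not tested. With 1 library left out, the call was lost by *Apoc3* without Ctrl 1, Ctrl 2 or LKO 2 (log2 fold change 0.41 to 0.70).

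Of 9 erythroid markers 5 were tested and 4 were higher, which was 2 without Ctrl 1, LKO 1 or LKO 2 and, without LKO 3, 1 with 1 lower. *Hba-a2*, an alpha globin that overlaps its copy *Hba-a1*, had 251, 702 and 509.9 FPKM in Ctrl and 811, 931 and 898 FPKM in LKO (log2 fold change 0.97 ± 0.35) and *Alas2*, the haem enzyme of erythroid cells, 1.95, 5.28 and 3.94 FPKM in Ctrl and 7.39, 8.17 and 9.99 FPKM in LKO (1.07 ± 0.27). *Hbb-b1* and *Hbb-bs* share 1 place on chromosome 7, and their summed level was 217, 585 and 454 FPKM in Ctrl and 725, 816 and 794 FPKM in LKO. Whether more blood lay in the vessels of these samples was not tested. Of 6 tested neutrophil markers 3 were higher and 1 lower, and 0 were lower without Ctrl 2, Ctrl 3, LKO 1 or LKO 2. *S100a9*, an alarmin of neutrophils, had 0.718, 1.54 and 1.07 FPKM in Ctrl and 10.3, 3.06 and 5.56 FPKM in LKO (1.69 ± 0.36) and its partner *S100a8* 1.47, 1.83 and 1.86 FPKM in Ctrl and 7.31, 2.201 and 4.96 FPKM in LKO (1.00 ± 0.33). *Prtn3*, a neutrophil protease, was lower, with 19.9, 25.9 and 43.2 FPKM in Ctrl and 6.85, 15.4 and 20.3 FPKM in LKO (-1.06 ± 0.42). Calls that rested on 1 library were those lost by *Hba-a2* without Ctrl 1, LKO 1, LKO 2 or LKO 3 (log2 fold change 0.55 to 1.03), by *S100a8* without Ctrl 1 or LKO 3 (0.93) and by *Prtn3* without Ctrl 2, Ctrl 3, LKO 1 or LKO 2 (-1.17 to -0.64).

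Other genes that the naming rule took for their size or p fell outside these lists. Upward, *Mcf2l*, an exchange factor for small GTPases, had 3.14, 3.41 and 4.91 FPKM in Ctrl and 9.61, 14.4 and 19.3 FPKM in LKO (log2 fold change 1.65 ± 0.25 (SE), limma adjusted p = 0.093), and *Arhgef37*, of the same class by name, 1.05, 1.45 and 1.59 FPKM in Ctrl and 4.53, 5.97 and 8.12 FPKM in LKO (log2 fold change 1.59 ± 0.19 (SE), limma adjusted p = 0.0852). *Cyp1a1*, the cytochrome induced by the aryl hydrocarbon receptor, had 1.97, 1.88 and 2.78 FPKM in Ctrl and 15.0, 5.498 and 6.18 FPKM in LKO (1.51 ± 0.34), with LKO 1 well above the others. *Fam214a* had 15.4, 13.2 and 34.2 FPKM in Ctrl and 38.8, 68.0 and 61.8 FPKM in LKO (1.46 ± 0.37) and *4931406P16Rik* 12.8, 12.4 and 20.02 FPKM in Ctrl and 28.7, 52.4 and 46.8 FPKM in LKO (1.43 ± 0.27), 2 genes with Ctrl 3 the highest of the Ctrl libraries. *Cldn15*, a claudin of tight junctions, had the smallest p of all genes, with 17.7, 16.5 and 19.5 FPKM in Ctrl and 33.4, 34.4 and 37.1 FPKM in LKO (log2 fold change 0.93 ± 0.09 (SE), limma adjusted p = 0.0734), and *Spaar*, which encodes a short polypeptide, 3.02, 3.09 and 3.44 FPKM in Ctrl and 6.22, 6.33 and 7.36 FPKM in LKO (log2 fold change 0.87 ± 0.09 (SE), limma adjusted p = 0.0734). Both had little spread within each group.

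Downward, *Zeb2*, a repressor of epithelial genes that is high in macrophages and mesenchyme, had 35.6, 31.9 and 22.6 FPKM in Ctrl and 10.8, 12.5 and 8.34 FPKM in LKO (log2 fold change -1.42 ± 0.20 (SE), limma adjusted p = 0.0884), and it overlaps *Zeb2os* on the other strand. *Zfp185*, a protein of the actin cytoskeleton, had 16.9, 11.2 and 15.4 FPKM in Ctrl and 6.19, 4.96 and 4.17 FPKM in LKO (log2 fold change -1.34 ± 0.18 (SE), limma adjusted p = 0.0884), and *Mtss1*, which bends membranes at the actin cortex, 17.5, 20.2 and 18.3 FPKM in Ctrl and 10.6, 10.4 and 9.41 FPKM in LKO (log2 fold change -0.82 ± 0.08 (SE), limma adjusted p = 0.0734). *Cxxc5*, a zinc-finger regulator of WNT signalling, had 12.6, 12.2 and 13.7 FPKM in Ctrl and 7.40, 7.38 and 7.62 FPKM in LKO (log2 fold change -0.71 ± 0.07 (SE), limma adjusted p = 0.0734), and *Apex2*, a DNA repair nuclease, 7.83, 7.67 and 7.33 FPKM in Ctrl and 4.30, 3.67 and 4.35 FPKM in LKO (log2 fold change -0.76 ± 0.09 (SE), limma adjusted p = 0.0791). For these 5 genes the highest LKO library lay clearly under the lowest Ctrl library. *Tmem254a*, named by the same rule, had 4.73, 3.29 and 3.37 FPKM in Ctrl and 0.248, 0.315 and 2.23 FPKM in LKO (-1.45 ± 0.37) but overlaps near-identical copies on the same strand. Its level summed with that of *Tmem254c* was 5.87, 3.67 and 4.64 FPKM in Ctrl and 14.0, 8.49 and 3.23 FPKM in LKO, so that over both copies LKO 1 and LKO 2 lay above and LKO 3 below every Ctrl library. 

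Mitochondrial and stress genes gave no calls with all 6 libraries, where 3.25% of all genes were called in either direction. Of 40 nuclear genes of oxidative phosphorylation 0 met the criterion by limma and 1 had groups without overlap, against 20.8% of all genes. Their log2 fold change was positive in 38 of 40, against 47.6% of all genes, and ran from -0.02 to 0.24 with a median of 0.15 (0.26 without Ctrl 1, 0.10 without Ctrl 2 and 0.09 without Ctrl 3). Of 31 genes of the mitochondrial ribosome 0 met the criterion (median -0.05, 0.02 without Ctrl 1, -0.07 without Ctrl 2 and -0.09 without Ctrl 3 or LKO 1), and of 24 tested targets of ATF4 and the integrated stress response 0 met it (median -0.21, -0.14 without Ctrl 1 or LKO 3), with 5 of them lower without overlap, against 11% of all genes. For the latter list 2 were higher and 1 lower without LKO 1, and 1 was lower without Ctrl 2 or LKO 3. Unadjusted p values under 0.05 at any fold change numbered 0, 0 and 6 in these 3 lists.

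Whether the effect in fat differed from that in the other tissues was tested in 1 limma fit of all 24 libraries, as the LKO effect in iWAT minus that in liver, gastrocnemius muscle (GM) or hypothalamus, with adjustment over 12288 genes. The adjusted p was under 0.05 for 5063 genes (41.2%) against liver, for 53 (0.431%) against GM and for 112 (0.911%) against hypothalamus. These 3 comparisons share the iWAT libraries and are not independent of each other. For the 28 endothelial markers the effect was larger in iWAT in 8 against liver, 2 against GM and 10 against hypothalamus, and smaller in 0. Counting only markers with a mean of at least 1 FPKM in Ctrl or LKO of the other tissue, it was larger in 5 of 24, 2 of 28 and 7 of 22. For *Btnl9* the log2 difference of effects was 1.14 against liver (adjusted p = 4.22e-04), 1.60 against GM (adjusted p = 0.00123) and 1.57 against hypothalamus (adjusted p = 0.00116). Mean *Btnl9* levels were 0.813 and 1.52 FPKM in Ctrl and LKO liver, 1.26 and 1.29 FPKM in GM and under 0.1 FPKM in hypothalamus, so that the value against hypothalamus restates the change in fat.

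Other genes differed against some tissues. *Kdr*, with expression in all 4 tissues, had a log2 difference of 0.45 against liver (adjusted p = 0.0897), 1.14 against GM (adjusted p = 0.0126) and 1.19 against hypothalamus (adjusted p = 0.00617). *Rbp7* had 1.37 against GM (adjusted p = 0.067), and since its mean was at most 0.179 FPKM in liver and hypothalamus, a difference from those tissues would only restate the change in fat. *Apex2*, which was above 1 FPKM in each tissue, had -1.06 against liver (adjusted p = 5.71e-06), -0.69 against GM (adjusted p = 0.0071) and -0.74 against hypothalamus (adjusted p = 0.00346). *Pdk4* went the other way against liver, where its increase was larger, with -2.92 against liver (adjusted p = 0.00415), -0.87 against GM (adjusted p = 0.769) and 0.92 against hypothalamus (adjusted p = 0.829). The mean of *Ucp1* stayed at or under 0.723 FPKM in the other tissues, so that its effect in fat could not be set against one there.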

How the data were processed

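Total RNA was extracted with TRIzol, and libraries were made with the TruSeq RNA Library Prep Kit v2, which does not mark strand, and read as 100-nt paired ends on a HiSeq4000. The authors deposited a joined table of FPKM per gene (mm10, NCBI Gene identifiers) with no stated scaling between libraries, and per library the coverage, FPKM and TPM of each gene, the coverage being unscaled signal and the deposited TPM scaled to a fixed sum. The submitters' processing notes name FastQC 0.11.5, Trimmomatic 0.32, HISAT2 2.0.5, Bowtie2 2.2.6, STAR 2.5.2b and StringTie 1.3.3b. Depth was inferred from coverage over FPKM, a ratio shared by 67.4% to 67.8% of the genes above 1 FPKM, since the deposited tables that were used hold no read counts, and no counting error of a gene was computed.

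Tests covered the genes that reached 1 FPKM in 3 or more of the 6 iWAT libraries, with limma 3.58.1 in R 4.3.3 (lmFit, eBayes with trend) on log2(FPKM + 1), 3 LKO against 3 Ctrl, with Benjamini-Hochberg adjustment. The fit was tested on simulated data for iWAT (200 of 12288 genes changed). At an adjusted p under 0.05 it recovered 93% of genes changed by 1 and 97% of those changed by 2 on the log2 scale. The changed genes were drawn only from those above about 5 FPKM on average. Noise was independent between genes and libraries, without the differences between libraries described above. These shares therefore do not give the power for low genes or for the real libraries. Python 3.11.15 with pandas 2.3.3 and matplotlib 3.10.9 made the summaries. Members and the 43 gene lists (18 of cell markers, 25 of pathways) were chosen with earlier results of these data known, and lists are described by counts and medians without a test. Beyond genes that the study names for fat, the naming rule took the 10 largest changes in each direction without overlap (unadjusted p under 0.05, mean of at least 1 FPKM), the 10 smallest p with a fold change of at least 1.5, up to 3 called members of each pathway list and the 3 highest members of each marker list. Alternatives were a pseudocount of 0.1, no filter, a mean of at least 5 FPKM, TPM, median-ratio scaling, quantile normalization, ordinary variances, all 24 libraries in 1 fit, a replicate block, a fold change of at least 2, leaving out each library and, chosen after seeing the data, leaving out Ctrl 1 together with LKO 2 or LKO 1. Some genes that the rule names are not reported here. Promoter sequences were taken from RefSeq (GRCm38.p6), and coordinates from the deposited tables.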

Additional observations from a re-analysis of the deposited data

Results flagged for a closer look

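The LKO effect differed between iWAT and each of liver, GM and hypothalamus for 14 genes, 11 that the naming rule took and 3 other members of the lists, by interaction contrasts of limma at an adjusted p under 0.05. The 3 contrasts share the iWAT libraries, and their fit pooled the spread of all 24 libraries, taken as independent. Where a gene was under 1 FPKM in another tissue (mean of Ctrl and of LKO), the difference mostly restates the change in fat. The values are log2 differences of effect, iWAT minus liver, GM and hypothalamus in that order, and the largest of the 3 adjusted p.

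*Btnl9* had 1.14, 1.60 and 1.57 (adjusted p at most 0.00123), with the gene under 1 FPKM in hypothalamus. For *Arhgef37* the differences were 1.76, 1.47 and 1.68 (at most 0.00129), with the gene under 1 FPKM in hypothalamus. *4931406P16Rik* had 0.78, 1.32 and 1.41 (adjusted p at most 0.0292), with the gene above 1 FPKM in all 3. For *Zfp185* the differences were -1.36, -1.32 and -1.36 (at most 0.00131), with the gene under 1 FPKM in liver, GM and hypothalamus. *Cldn15* had 0.69, 0.83 and 0.99 (adjusted p at most 0.00525), with the gene under 1 FPKM in liver and hypothalamus. For *Dkk2* the differences were -0.95, -0.995 and -0.94 (at most 0.00214), with the gene under 1 FPKM in liver and hypothalamus. *Spaar* had 0.68, 0.59 and 0.90 (adjusted p at most 0.0459), with the gene under 1 FPKM in liver and hypothalamus. For *Apex2* the differences were -1.06, -0.69 and -0.74 (at most 0.0071), with the gene above 1 FPKM in all 3. *Adamts5* had -1.26, -1.13 and -0.98 (adjusted p at most 0.00477), with the gene under 1 FPKM in liver and hypothalamus. For *Lif* the differences were -0.84, -0.67 and -0.74 (at most 0.0437), with the gene under 1 FPKM in liver, GM and hypothalamus. *Wnt10b* had -0.69, -0.62 and -0.68 (adjusted p at most 0.0179), with the gene under 1 FPKM in liver, GM and hypothalamus. 

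*Lipg* gave 0.95, 1.32 and 1.38 (at most 0.00172), but it passed the filter only through the LKO libraries of iWAT, where it is high, and was under 1 FPKM in GM and hypothalamus. *Has2* gave -0.77, -0.78 and -0.74 (at most 0.00344), but it passed the filter only through the Ctrl libraries of iWAT, where it is high, and was under 1 FPKM in liver, GM and hypothalamus. *Cnn1* gave 0.52, 0.87 and 0.84 (at most 0.00837), but it passed the filter only through the LKO libraries of iWAT, where it is high, and was under 1 FPKM in liver, GM and hypothalamus. The contrasts of these 3 genes are therefore not read as differences between tissues.

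For the others, the LKO effect was more positive in iWAT for *Btnl9*, *Arhgef37*, *4931406P16Rik*, *Cldn15* and *Spaar*, and more negative for *Zfp185*, *Dkk2*, *Apex2*, *Adamts5*, *Lif* and *Wnt10b*. In Ctrl, *Zfp185* had a mean of 14.5 FPKM in iWAT, and *Apex2* 7.61 FPKM in iWAT and 2.56 to 4.33 FPKM elsewhere. Groups of 3 libraries are not tested for outliers. No cause was tested.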

How the results depend on the processing

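Over 17 alternatives (fewer where a gene failed a filter), none of the 87 named genes that met the unadjusted criterion with all 6 libraries changed direction. This was largely fixed in advance and is no test of these genes. Both filter settings, ordinary variances, all 24 libraries in 1 fit and the replicate block leave the log2 fold change itself unaltered. Leaving out libraries cannot turn the sign of a gene whose groups do not overlap. Of the other named genes 15 changed sign in some alternative, of which *Gzma* met the criterion in 1 alternative and *Cxcl13* in 2. Across named genes and alternatives, 1945 values kept their side of the unadjusted criterion, while 175 lost it and 52 gained it. The count of 399 genes was 278 to 608 under all planned settings at a fold change of 1.5, and 297 to 608 on leaving out 1 library. It was 70 (47 higher, 23 lower) at a fold change of at least 2, and 706 without Ctrl 1 and LKO 1. The adjusted criterion was met by 14 genes after median-ratio scaling, by 14 after quantile normalization, by 317 with all 24 libraries in 1 fit, by 0 to 106 on leaving out 1 library and by 2 without Ctrl 1 and LKO 1. With a pseudocount of 0.1 the unadjusted count was 589, with the deposited TPM 571 (394 higher, 177 lower), and with ordinary variances 282. The difference of effects was called for 12 genes against GM and 30 against hypothalamus with a pseudocount of 0.1, and for 102 against GM after median-ratio scaling over 24 libraries. On leaving out 1 iWAT library it was called for 4232 to 5134 genes against liver, 29 to 233 against GM and 64 to 343 against hypothalamus. The causes were not tested. With the replicate block the unadjusted count was 433 (265 higher, 168 lower) and the adjusted one 0. Libraries of the same number had deviations from their group means that correlated at 0.302, -0.124 and 0.205 across genes, and Ctrl 2, LKO 2 and LKO 3 did not correlate best with their own number, so the numbers were not taken to pair the mice. Without counts, the error of low values such as those of *Elovl3*, *Cited1*, *Lipg* and *Mup19* is not known.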
